A study of Homo sapiens with 14 samples.

Results

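Alternative 3′ splice sites that lie 10 to 30 bp apart were examined in HEK293T cells with and without the SF3B1 K700E mutation. An event of this type is 1 exon that can begin at either of 2 acceptor AGs, so that the mRNA holds 10 to 30 more bases when the upstream site is used. The events were taken from the splicing table of the study as all alternative 3′ splice site events with a mean of at least 10 junction reads (the mean of the WT and MT averages) whose long and short exons differed by 10 to 30 bp. There were 1028 such events in 833 genes, of 5671 alternative 3′ events with that many reads and of 114349 splicing events of all types. Of the 1028, 997 events in 812 genes could be tested. The remaining 31 were 30 events with the same level in all 6 libraries and 1 event without a level in every library. The 997 events held 941 different pairs of splice sites, since some pairs were listed with more than 1 flanking exon.

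The RNA-Seq comparison held 3 libraries of SF3B1 K700K (WT) and 3 libraries of SF3B1 K700E (MT) cells. HEK293T is a human line derived from embryonic kidney, and the mutation was placed at the endogenous SF3B1 locus of the isogenic line. No treatment differed between the groups. How many clones were used, and whether libraries of 1 genotype came from separate cultures, is not given in the sources used here, so that p-values measure only the spread between these libraries. Although the series has 3 MT samples, 6 MT values are listed for each event, and separate columns exist for only 3 of them. The MT libraries below are these columns, called MT 1, MT 2 and MT 3 in column order. Whether they match the deposited MT samples could not be settled. The table holds no expression levels and no genotypes, so that neither the cell line nor the mutation could be checked in it. The table gives no library totals. The median event had 63 reads (the mean of the WT and MT averages), with a lower quartile of 30.5 reads.

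SF3B1 is a subunit of the U2 small nuclear ribonucleoprotein, which binds the branch point before an exon and so takes part in the choice of the AG at which the exon begins. K700E is a recurrent change in the HEAT repeat domain of SF3B1. Cells with such mutations are known for the use of AGs a short way upstream of the usual one, often with few pyrimidines and an adenine-rich stretch before them. Added bases keep the reading frame only when their number is a multiple of 3. Otherwise they move the frame, and an mRNA with an early stop codon can be degraded by nonsense-mediated decay.

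The sequences below show the 2 competing sites of the events on which the results turn. They are those of DLST, ERGIC3 and ZDHHC16, which were called in the test, and of 6 more events named by the selection rule, and all of them lie at coding exons. Each begins 40 bases before the upstream exon start and ends 10 bases into the shorter exon, 5′ to 3′ on the gene's strand of GRCh38. The capitals mark the upstream and the downstream AG. The bases after the upstream AG, up to and including the downstream AG, are those that only the longer mRNA holds.
DLST, 19 bp, plus strand, chr14:74889838-74889906: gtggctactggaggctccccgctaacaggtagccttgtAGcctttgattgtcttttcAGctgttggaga
ERGIC3, 18 bp, plus strand, chr20:35556915-35556982: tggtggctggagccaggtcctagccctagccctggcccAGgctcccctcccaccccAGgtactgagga
ZDHHC16, 21 bp, plus strand, chr10:97455599-97455669: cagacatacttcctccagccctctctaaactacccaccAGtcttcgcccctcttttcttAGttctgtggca
HLTF, 12 bp, minus strand, chr3:149041659-149041720: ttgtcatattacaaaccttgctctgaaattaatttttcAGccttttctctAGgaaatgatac
TRIM37, 27 bp, minus strand, chr17:59001705-59001781: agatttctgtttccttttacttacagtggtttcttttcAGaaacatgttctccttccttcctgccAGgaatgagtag
EHMT1, 21 bp, plus strand, chr9:137743331-137743401: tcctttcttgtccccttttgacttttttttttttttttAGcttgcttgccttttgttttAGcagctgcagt
THOC1, 21 bp, minus strand, chr18:224170-224240: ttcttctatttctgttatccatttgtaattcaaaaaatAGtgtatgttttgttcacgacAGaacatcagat
METTL5, 18 bp, minus strand, chr2:169812497-169812564: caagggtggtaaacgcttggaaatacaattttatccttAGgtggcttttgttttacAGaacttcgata
PCNX1, 15 bp, plus strand, chr14:71012945-71013009: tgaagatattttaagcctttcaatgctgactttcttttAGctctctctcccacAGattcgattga

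The measure used was the inclusion level, a fraction between 0 and 1 that the authors computed from junction reads. Here it is the share of the longer form, which uses the upstream AG. Levels entered limma after an arcsine transform of their square roots, over all 83581 events tested, and an event was called at an adjusted p under 0.05 with a difference of the group means above 0.1. In addition, an event was counted as shifted up when all 3 MT libraries lay above all 3 WT libraries with a mean difference above 0.1, and as shifted down in the reverse case. A shift is a description without a test, because an exact permutation test of 3 against 3 libraries cannot go below p = 0.10. Reads of a single library were not used, so that no limit can be given for a level listed as 0.

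In MT cells the upstream AG of SERBP1, DLST, ERGIC3 and ZDHHC16 was used more. These 4 events were the only ones of the 997 that were called, all higher in MT. Over all 83581 events, 26 were called in either direction, or 0.0311%, and 11 were called higher in MT, or 0.0132%. Among all 5351 alternative 3′ events 12 were called in either direction. These included 7 of 3251 with sites over 30 bp apart, 1 of 431 at 4 to 9 bp and 0 of 642 at 3 bp. With the called events, 75 of the 997 were higher and 14 lower in MT at an unadjusted p under 0.05. Over all events tested, 1.53% were higher and 2.95% lower at that p, and over all alternative 3′ events 2.69% and 3.57%.

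SERBP1, which encodes an RNA-binding protein associated with ribosomes and mRNA stability, had the most reads of the 4, with a mean of 3562 reads. Its added 18 bases (coding, annotated in 3 transcripts against 3 that begin at the downstream site) keep the frame and hold no stop codon. The level was 0.461, 0.5 and 0.509 in the WT libraries and 0.801, 0.757 and 0.805 in the MT libraries. The longer form was thus close to equal with the shorter one in WT and was the major form in each MT library. The means were 0.490 ± 0.0255 and 0.788 ± 0.0266 (SD, n = 3 each), a difference of 0.298 (limma, adjusted p = 6.76e-10).

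DLST encodes the E2 subunit of the 2-oxoglutarate dehydrogenase complex of the citric acid cycle. Its upstream site adds 19 bases (chr14:74889878-74889896, coding), so that the frame is moved, and 1 annotated transcript uses it against 7 that use the downstream site. The level was 0.047, 0.069 and 0.059 in WT against 0.293, 0.455 and 0.365 in MT. The form was rare in all WT libraries, and its mean was 0.371 ± 0.0812 in MT against 0.0583 ± 0.0110 in WT (SD, n = 3 each; limma, adjusted p = 5.91e-05). A second DLST event, with sites 12 bp apart at another exon, had levels of 1, 1 and 0.915 in WT and of 1 in every MT library, and was not called (adjusted p = 0.856).

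ERGIC3 encodes a membrane protein that cycles between the endoplasmic reticulum and the Golgi. Its 18 added bases (chr20:35556955-35556972, coding, in frame, without a stop codon) are annotated in 1 transcript against 6. The level was 0.009, 0.041 and 0.033 in WT against 0.216, 0.161 and 0.182 in MT. No library of one group reached the range of the other, and the means were 0.0277 ± 0.0167 and 0.186 ± 0.0278 (SD, n = 3 each; limma, adjusted p = 0.000963).

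ZDHHC16 encodes a palmitoyltransferase. The added 21 bases (chr10:97455639-97455659, coding, in frame, no stop codon) are annotated in 1 transcript against 9. With a mean of 86.3 reads it was the event with the fewest reads of the 4. The level was 0.070, 0.045 and 0.153 in WT against 0.446, 0.368 and 0.319 in MT, with means of 0.0893 ± 0.0565 and 0.378 ± 0.0640 (SD, n = 3 each; limma, adjusted p = 0.0416). The groups did not overlap, but the call was lost when any 1 of the 6 libraries was left out (adjusted p from 0.276 to 0.880). The call of DLST was lost without MT 1 (adjusted p = 0.0590) or MT 2 (0.0530), and that of ERGIC3 was lost without any 1 library other than WT 2 (0.0957 to 0.533). SERBP1 stayed called whichever library was left out (adjusted p up to 0.0175). All 4 calls were lost with a logit transform, with no transform or without the variance trend (adjusted p of 0.0983 or more).

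**Figure D1:**
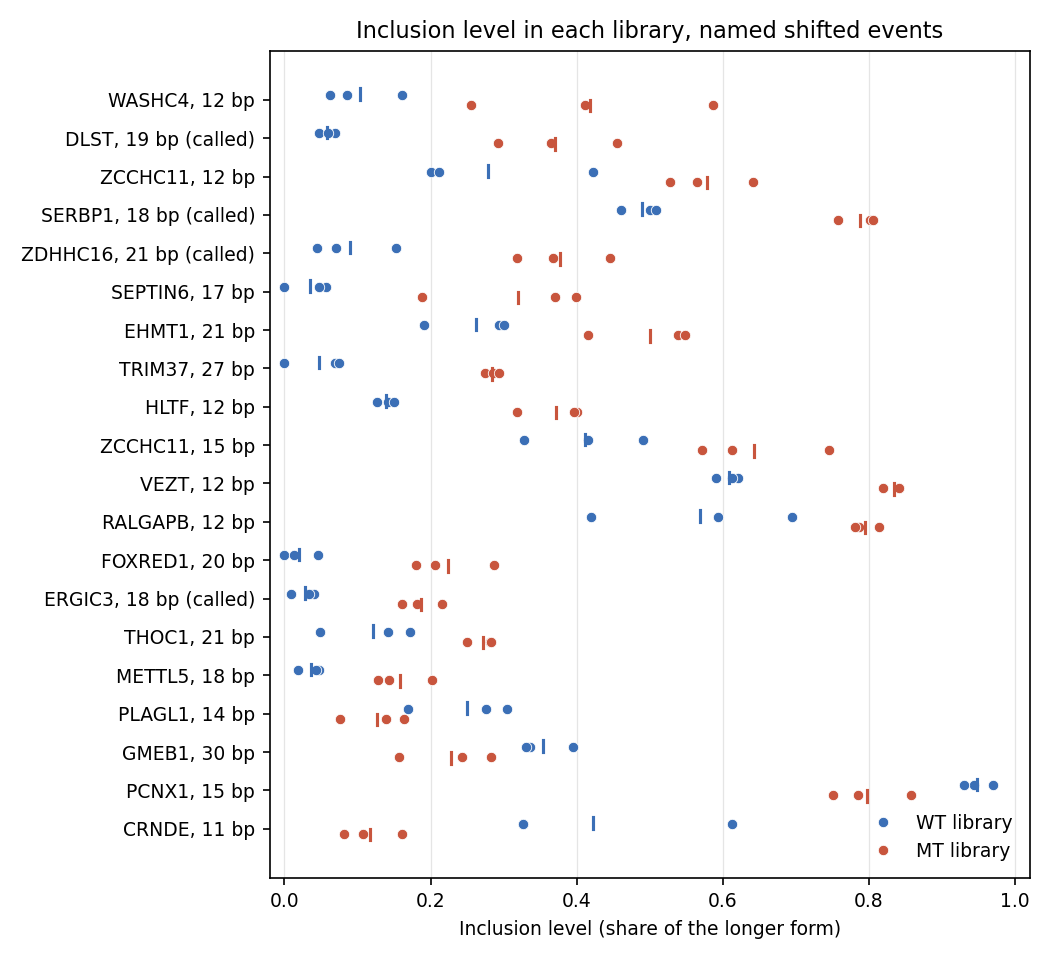
Inclusion level (x axis, share of the longer form, 0 to 1) in each of 3 WT (blue) and 3 MT (red) libraries for the named events that were shifted, with short vertical lines at the group means and the distance between the sites in the row label. In every row the 3 MT points lie on one side of the 3 WT points, with the 4 called events among the 16 rows that lie higher in MT.

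Another 3 events passed the adjusted p without a difference above 0.1, and they were picked out after their values were seen. EI24, an endoplasmic reticulum protein gene with sites 12 bp apart, had levels of 0.023, 0.022 and 0.028 in WT against of 0.135, 0.109 and 0.116 in MT (limma, adjusted p = 0.0123). NASP, which encodes a histone chaperone and has sites 19 bp apart, had means of 0.00433 ± 0.00404 in WT and 0.0667 ± 0.0137 in MT (SD, n = 3 each; limma, adjusted p = 0.0123). SEPTIN2, a septin cytoskeleton gene with sites 16 bp apart, had means of 0.0227 ± 0.0130 and 0.123 ± 0.0323 (SD, n = 3 each), a difference of 0.1 (limma, adjusted p = 0.0257). These events had means of 400 to 478 reads, and their longer forms were rare in WT. A second NASP event with sites 19 bp apart had only 11.2 reads and overlapped between the groups. Its levels were 0.295, 0 and 0.676 in WT against 0.690, 0.511 and 0.544 in MT (limma, adjusted p = 0.856).

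Beyond the called events, upward shifts were more frequent than downward ones. Of the 997 events, 48 were shifted up, or 4.81%, and 14 were shifted down, or 1.40%. Among all 83581 events tested the shares were 0.748% up and 0.977% down, and among all 5351 alternative 3′ events they were 1.91% and 1.59%. Because a shift needs a difference above 0.1, the 306 of the 997 events with a WT mean above 0.9 could not be shifted up. The 431 with a WT mean of at most 0.1 could not be shifted down. The median difference (MT minus WT) was 0.00233 over the 997 events and -0.002 over all events tested, so that the middle of the distribution hardly differed from 0. The mean level over the 997 events was 0.425, 0.424 and 0.430 in the WT libraries and 0.435, 0.437 and 0.437 in the MT libraries. Pairs of libraries of 1 genotype correlated across events at 0.960 to 0.971, and pairs of different genotype at 0.954 to 0.965. Events within a library share its depth, and these values are descriptions.

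Other distances between alternative 3′ sites had smaller shares of upward shifts. With sites 3 bp apart, 15 of 642 events were shifted up and 9 down. With sites 4 to 9 bp apart, 2 of 431 were shifted up and 3 down. With sites over 30 bp apart, 37 of 3251 were shifted up, or 1.14%, and 59 down, or 1.81%. No test of the differences between distances was run. At the lower edge of the window, the event with the greatest difference 9 bp apart was ANKHD1 (0.452, 0.551 and 0.383 in WT, 0.794, 0.799 and 0.730 in MT), just outside. It was also called (limma, adjusted p = 0.0411). The one 10 bp apart was MYCBP, with 0.577, 0.532 and 0.798 in WT against 0.522, 0.432 and 0.178 in MT. At the upper edge, C2CD5 at 30 bp had 0.753, 0.395 and 0.864 in WT and 1 in every MT library, with only 17.3 reads, and ABCD4 at 31 bp had 0.056, 0.136 and 0.095 in WT against 0.138, 0.177 and 0.259 in MT.

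**Figure D2:**
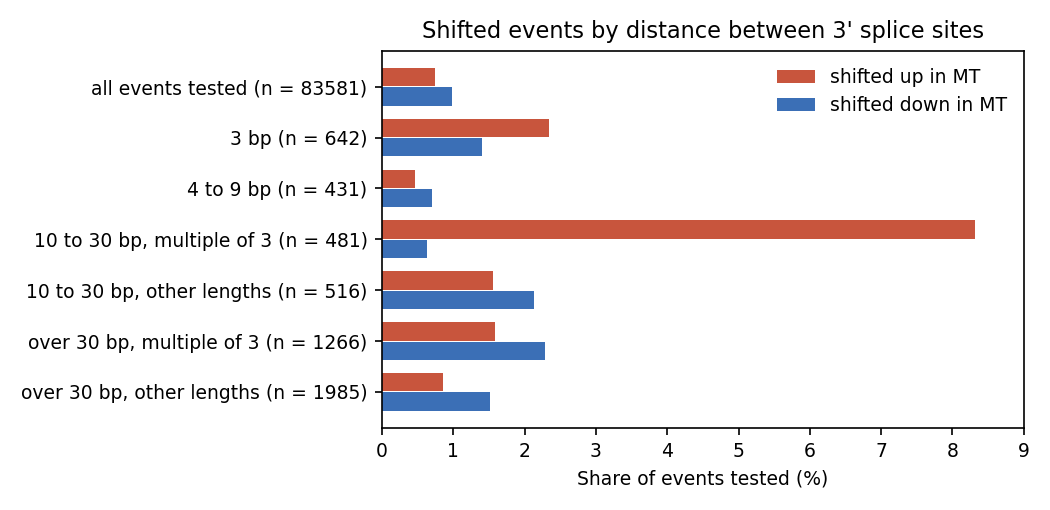
Share of events tested (x axis, %) that were shifted up (red) or down (blue) in MT, for all events and for alternative 3′ events by the distance between their sites, with the number of events in each row label. The bar for sites 10 to 30 bp apart whose distance is a multiple of 3 reaches 8.32% up, and the next longest, for 3 bp, reaches 2.34% up.

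The upward shifts lay largely in events whose distance was a multiple of 3, counted whether or not the added bases were coding. Among the 481 events whose distance was a multiple of 3, 40 were shifted up, or 8.32%, and 3 were shifted down. Among the 516 other events, 8 were shifted up, or 1.55%, and 11 down, or 2.13%. Thus 83.3% of the 48 events shifted up added a multiple of 3 bases (Wilson 95% interval 70.4 to 91.3%, counting error only), against 48.2% of all 997 events. The interval takes the events as independent, although they share the same libraries, and is no test. With a difference above 0.05 in place of 0.1 the share was 71.6%. The median difference was 0.00433 in the first class and 0.001 in the second. Median reads were alike, at 63.8 and 61.0.

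The median level of events with a multiple of 3 was 0.280, 0.301 and 0.279 in WT against 0.356, 0.372 and 0.380 in MT, so that each MT library lay above each WT library. For the other lengths it was 0.106, 0.116 and 0.124 in WT against 0.126, 0.139 and 0.126 in MT. Each MT median there also lay above each WT median, by less. The mean level of the other lengths did not rise, at 0.4084, 0.4001 and 0.4108 in WT against 0.4072, 0.4051 and 0.4045 in MT. With a multiple of 3 the mean was 0.4419, 0.4494 and 0.4497 in WT against 0.4641, 0.4708 and 0.4727 in MT, without overlap.

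The level in WT also differed between the classes, and events near 0 or 1 have less room to move. With a WT level of at most 0.1, 14 of 179 events with a multiple of 3 and 5 of 252 others were shifted up. At WT levels of 0.1 to 0.5, 20 of 97 and 3 of 63 were shifted up. At 0.5 to 0.9 the counts were 6 of 59 and 0 of 41. The 146 and 160 events above 0.9 could not be shifted up by definition, since the difference must be above 0.1. The share shifted up was therefore higher with a multiple of 3 in each of the 3 lower ranges of WT level, and it was highest, 20.6%, at WT levels of 0.1 to 0.5. The differences between the classes were not tested.

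**Figure D3:**
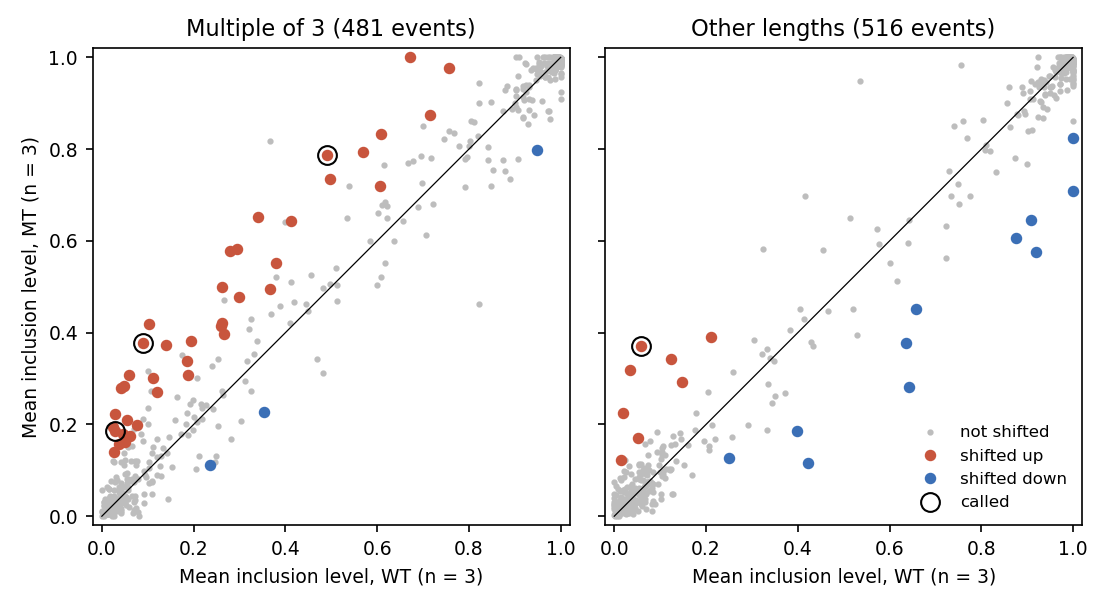
Mean inclusion level in MT (y axis, n = 3 libraries) against WT (x axis, n = 3), with 1 point for each of 481 events with a multiple of 3 (left) and 516 other events (right), the diagonal as a line and called events in black rings. On the left 40 red points (shifted up) lie above the diagonal against 3 blue points (shifted down) below, and on the right there are 8 red and 11 blue points.

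By distance, upward shifts were most numerous at 12, 15, 18 and 21 bp, which were grouped after the counts were seen. At these 4 distances 8 of 57, 9 of 65, 7 of 79 and 9 of 93 events were shifted up, together 33 of 294 or 11.2%, and 2 were shifted down. At 24 and 27 bp only 2 of 133 were shifted up, although these distances are also multiples of 3, and at 30 bp there were 5 of 54. By share, 30 bp (9.26%) stood above 18 bp (8.86%). None of the distances that are not a multiple of 3 had more than 2 events shifted up. The 2 called events 18 bp apart were SERBP1 and ERGIC3, and DLST and ZDHHC16 lay at 19 and 21 bp.

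**Figure D4:**
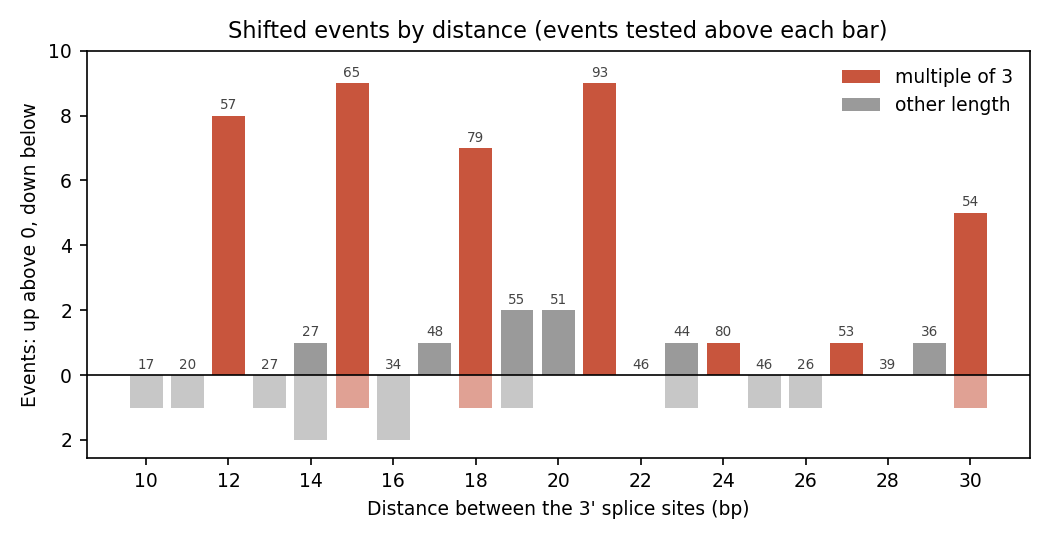
Number of events shifted up (bars above 0) and shifted down (paler bars below 0) in MT at each distance between the 3′ splice sites (x axis, bp), in red where the distance is a multiple of 3, with the number of events tested printed above each bar. The 4 tallest bars, of 7 to 9 events, stand at 12, 15, 18 and 21 bp.

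The 48 events shifted up came from 47 genes, with differences of 0.108 to 0.329 and a median of 0.183. Their median level was 0.144 in WT and 0.372 in MT, the longer form was under 0.1 in WT in 19 of them, and it exceeded 0.5 in MT in 14. Of the 12 with the largest differences among those with 50 or more reads, 3 were called (DLST, SERBP1 and ZDHHC16).

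The greatest of these differences was at WASHC4, a gene of the WASH complex that shapes actin on endosomes. Its level was 0.161, 0.086 and 0.063 in WT against 0.587, 0.256 and 0.411 in MT, and the wide spread in MT went with an adjusted p of 0.183. Its added 12 bases (chr12:105121089-105121100) hold a stop codon in the annotated frame, although they keep the frame. ZCCHC11, now named TUT4, encodes a terminal uridylyltransferase that tails RNAs. It had 2 shifted events that share the downstream site. The one 12 bp apart had levels of 0.201, 0.423 and 0.211 in WT against 0.641, 0.528 and 0.565 in MT (adjusted p = 0.338), and the one 15 bp apart had 0.328, 0.491 and 0.416 in WT against 0.745, 0.612 and 0.571 in MT (adjusted p = 0.594). Both are measured against the same short form and are not independent.

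HLTF, a DNA translocase that remodels stalled replication forks, had levels of 0.127, 0.142 and 0.15 in WT against 0.401, 0.397 and 0.319 in MT at sites 12 bp apart, just short of the threshold (adjusted p = 0.0542). TRIM37, a ubiquitin ligase that limits centriole duplication, had 0, 0.069 and 0.075 in WT against 0.275, 0.285 and 0.294 in MT at sites 27 bp apart (adjusted p = 0.0794). For EHMT1, a histone H3 lysine 9 methyltransferase, the values were 0.294, 0.301 and 0.191 in WT against 0.415, 0.538 and 0.548 in MT (adjusted p = 0.343). In all 3 the groups did not overlap and the added bases keep the frame without a stop codon. The longer form is the rarer one in the annotation of HLTF and TRIM37, in 1 transcript each, whereas for EHMT1 it is annotated in 10 transcripts against 4.

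In VEZT, which encodes a protein of adherens junctions, the longer form was already the major one in WT, at 0.621, 0.613 and 0.590, and it stood at 0.819, 0.841 and 0.841 in MT (adjusted p = 0.344). RALGAPB, a subunit of a Ral GTPase-activating complex, was similar, with 0.594, 0.694 and 0.419 in WT against 0.814, 0.787 and 0.781 in MT (adjusted p = 0.840). In both, sites lie 12 bp apart and the upstream site is annotated in more transcripts than the downstream one. FOXRED1, an assembly factor of respiratory complex I, was the only one of these 12 events besides DLST to move the frame, with 20 added bases. Its longer form was at 0, 0.046 and 0.013 in WT and at 0.287, 0.180 and 0.206 in MT (adjusted p = 0.103).

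Downward shifts were fewer and had fewer reads, with a median of 34.5 reads against 69.4 for the upward ones. Only 4 of the 14 had 50 or more reads. CRNDE, a long noncoding RNA, had levels of 0.327, 0.327 and 0.612 in WT against 0.082, 0.161 and 0.107 in MT at sites 11 bp apart (adjusted p = 0.361), and its mean reads were 20.7 in WT and 83.0 in MT. PCNX1, a gene for a pecanex membrane protein, had 0.970, 0.944 and 0.930 in WT against 0.751, 0.785 and 0.857 in MT (adjusted p = 0.512), so that its downstream site, 15 bp away, was used more in MT. GMEB1, a DNA-binding protein gene, had 0.395, 0.336 and 0.330 in WT against 0.157, 0.243 and 0.283 in MT, and PLAGL1, an imprinted zinc finger gene, had 0.169, 0.305 and 0.276 in WT against 0.076, 0.164 and 0.139 in MT (adjusted p = 0.856 for both). With 49.8 reads, ZNF561 fell just outside that selection and is given after its values were seen. This zinc finger gene, with sites 13 bp apart, had 0.906, 0.886 and 0.966 in WT against 0.551, 0.584 and 0.594 in MT (adjusted p = 0.0556). None of the 14 was called.

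Genes that the study or earlier work had tied to mutant SF3B1 were listed with results on these samples known, so that the list is no independent evidence of direction. It had 22 events in 17 genes, of which 10 were shifted up, 1 was shifted down (CRNDE) and 4 were called. Among all 997 events 4.81% were shifted up, 1.40% were shifted down and 4 were called. Besides the genes above, THOC1, a subunit of the THO complex of mRNA export, had levels of 0.049, 0.142 and 0.172 in WT against 0.282, 0.283 and 0.250 in MT (adjusted p = 0.665). METTL5, which encodes an RNA methyltransferase that acts on ribosomal RNA, had 0.047, 0.019 and 0.043 in WT against 0.143, 0.128 and 0.202 in MT (adjusted p = 0.330). SEPTIN6, a septin gene, had 0.057, 0.048 and 0 in WT against 0.189, 0.371 and 0.399 in MT, with only 17.3 reads (adjusted p = 0.663).

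Other events of the same list overlapped between the groups. STAU1, a double-stranded RNA-binding protein, had 0.061, 0.131 and 0.075 in WT against 0.126, 0.304 and 0.205 in MT at sites 18 bp apart. TGFBR1, the type I receptor for TGF-β, had 0.068, 0.170 and 0.085 in WT against 0.134, 0.333 and 0.351 in MT. In each, 1 MT library lay within the WT range. The 2 events of DVL2, a WNT signalling gene, and the 2 of HINT2, a mitochondrial hydrolase gene, had differences between -0.013 and 0.0103, on either side of 0.

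Lists of genes by function held few of these events, to be read beside the 4.81% shifted up and 1.40% shifted down among all 997. Of 14 events in genes of mRNA decay and export, 2 were shifted up (SERBP1 and THOC1), 1 of these was called, and 4 were higher in MT at an unadjusted p under 0.05. Of 10 events in DNA damage response genes, 1 was shifted up (HLTF) and 1 was higher at that p. Of 11 in genes of mitosis and the cell cycle, 1 was shifted up (TRIM37) and 2 were higher at that p. None of 6 events in genes of NF-κB activation, 12 in genes of heme and iron-sulfur metabolism and 12 in spliceosome genes was shifted or called by limma, and at an unadjusted p under 0.05 the spliceosome list had 1 event higher in MT and the other 2 lists 0. No event of these 6 lists was lower at that p. With so few events, 1 event more or less moves each share by more than the share over all events.

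The sequence before the sites was compared with 1 event for each of the 941 pairs, of which 47 were shifted up, 13 down and 881 neither. An AG stood before the exon start at both sites in each of the 60 shifted pairs, and at 863 upstream and 879 downstream sites of the 881 others. In the 20 bases before the upstream AG, the median share of pyrimidines was 70% in pairs shifted up, 65% in those shifted down and 65% in the rest, and that of adenine was 20%, 25% and 20%. Before the downstream AG, pyrimidines made up a median of 70% in all 3 classes, and adenine 15%, 10% and 15%. In close pairs these 20 bases also held the upstream AG. Medians over this window thus differed between the classes by at most 1 base of 20, less than the spread between pairs, whose SD was 12.5% for pyrimidines before the upstream AG of pairs shifted up. The rest was not split by WT level and also held pairs whose upstream site was the main one in WT. It is therefore not a like comparison for a rarely used upstream AG. Among the named events shifted up, the bases before the upstream AG ran from WASHC4, with 40% pyrimidines and 50% adenine, to EHMT1, with 90% and 5%. The base before the upstream AG was C in 63.8% of pairs shifted up and 52.4% of the rest, and T in 25.5% and 28.5%. In pairs shifted down it was T in 7 of 13. A further AG between the sites was present in 21.3% of pairs shifted up and 21.6% of the rest.

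Position by position, the profiles of pairs shifted up and of the rest differed in either direction. Taken as a mean over 5 bases within 50 bases of the exon start, the share of adenine before the upstream site in the 47 pairs shifted up minus that in the 881 others ran from -6.20 to 8.54 percentage points. For pyrimidines there it ran from -3.67 to 9.90. Before the downstream site the differences ran from -6.84 to 4.98 points for adenine and from -3.77 to 12.2 points for pyrimidines. These positions run through the upstream AG itself, so the differences there partly reflect how the distances between the sites were distributed. Before the upstream site, with the G of the AG at -1, the adenine differences came in runs. Neighbouring means share most of their bases, so the smoothing alone can make such runs. The mean over 5 bases was lower in pairs shifted up at -5 to -11, higher at -12 to -20 and lower at -21 to -29. At -16 it was 25.96% in pairs shifted up against 17.89% in the others, and at -25 it was 17.02% against 23.22%. The largest excess lay farther away, at -44, with 31.49% against 22.95%. These differences were not tested.

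**Figure D5:**
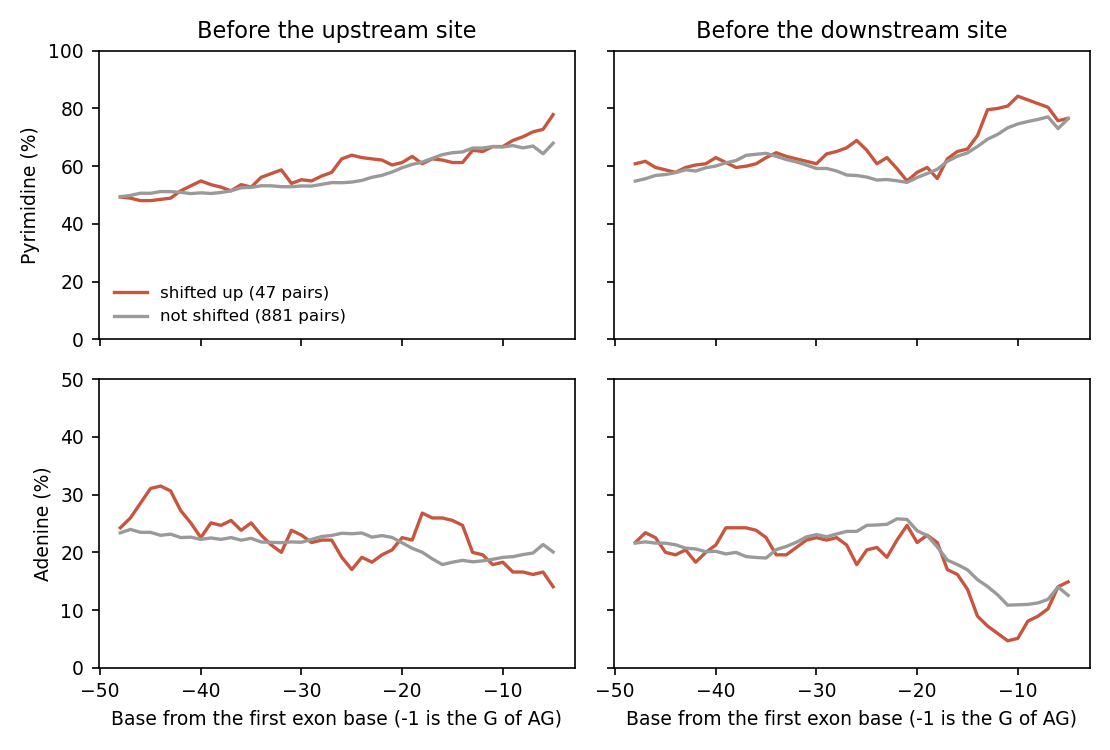
Share of pyrimidines (top) and adenine (bottom), in % as a mean over 5 bases, by position before the upstream (left) and downstream (right) exon start, in 47 pairs shifted up (red) and 881 pairs not shifted (grey). The red lines run on both sides of the grey ones, with differences from -6.84 to 8.54 percentage points for adenine and from -3.77 to 12.2 for pyrimidines. The positions before the downstream exon start include the upstream AG.

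Both sites of all 60 shifted pairs are exon starts in GENCODE release 44, as in 872 of the 881 other pairs, so that the table held few unannotated sites at this distance. The downstream site began more annotated transcripts than the upstream one in 37 of the 47 pairs shifted up, in 4 of 13 shifted down and in 507 of 881 others. In the 19 pairs shifted up whose WT level was under 0.1, this was so in 19 of 19. The 881 others cover all WT levels, also those too high for an upward shift, and were not counted by level. These counts therefore do not separate shifting from a low use of the upstream site in WT. The added bases were coding in 46 of 47 pairs shifted up (97.9%), in 10 of 13 shifted down and in 82.6% of the rest. Of the 38 coding pairs shifted up with a multiple of 3, 2 had a stop codon in the added bases in the annotated frame, compared with 31 of 358 in the rest.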

How the data were processed

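RNA-Seq libraries were made by the authors with a KAPA stranded kit as paired 101-bp reads. The submitters' processing notes name STAR, StringTie and GRCh38, without their roles for this table, and Methods name the rMATS model. The authors deposited inclusion levels as fractions with 3 decimals and mean junction reads of each group. MT reads are the authors' means over all 6 listed MT values. The authors' p-values, adjusted p-values and differences were not used. The lists of junction counts are partly run together and their MT values are not matched to samples, so no count test was run.

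Levels were compared by limma 3.58.1 (R 4.3.3) with a variance trend on log2 mean reads and Benjamini-Hochberg adjustment over 83581 events. The fit was tested on simulated data. Members and gene lists were chosen with earlier results of these data known. Named were all called events, the 12 largest shifts in each direction with 50 or more reads, shifted events of the gene lists and, in the list of SF3B1 targets, all with 20 or more reads. An event of that list and the sequence of another are not reported here. Of the events, 5 had symbols turned into dates, restored by gene identifier. Sequence and exon starts came from GRCh38 and GENCODE release 44. Alternatives covered transform, variance estimate, read minimum, shared pairs, sequence window, shift threshold and each library.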

Additional observations from a re-analysis of the deposited data

How the results depend on the processing

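No paired analysis was possible because the MT columns carry no replicate number of the labels. With the logit of the level, the level itself or no variance trend, limma called 0 of the 997 events (116, 116 and 95 had an unadjusted p under 0.05, against 89), and the called events then had adjusted p values of 0.0983 to 0.616 (logit), 0.214 to 0.636 and 0.164 to 0.334. With robust variance 11 were called, 10 higher, adding WASHC4, HLTF, ZCCHC11 (12 bp), TRIM37, FOXRED1, PPP6R3 and, lower, ZNF561. Read minima of 20, 50 and none gave 4, 3 and 3 calls and 1 event per pair 3, and leaving out 1 library gave 1 to 3. The median difference was 0.003 with a minimum of 20 or 50 reads and 0.002 to 0.00317 without 1 library. With a minimum of 50 reads 30 events were shifted up and 4 down, and without 1 library, where fewer points must be separate, 53 to 63 up and 19 to 25 down. The share of upward shifts with a multiple of 3 was 71.6% for differences above 0.05 and 81.0% above 0.2. Windows of 15 or 30 bases moved the medians of composition by less than 1 SD. Without 1 library the differences of HINT2 ran from -0.00617 to 0.000333 (29 bp, turned without WT replicate 2) and from -0.0287 to 0.00483 (30 bp, turned without MT 3), and no other named event changed sign. The causes were not tested.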
